A study of Mus musculus with 15 samples.

Results

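The genes described here are 8 markers of lymphocytes in mouse kidney: the pan-leukocyte gene Ptprc, the T-cell receptor chain genes Cd3d, Cd3e and Cd3g, the co-receptor genes Cd4 and Cd8a, and the B-cell genes Cd79a and Ms4a1. They were taken by name, and each symbol matched 1 Ensembl identifier among the 54532 genes of the deposited table. Kidney RNA was sequenced from 15 male C57BL/6 mice, 8 weeks old at the start and 5 in each of 3 groups. The control group (C) ate a normal diet and was gavaged with the vehicle, DMSO in saline. The CKD model group (M) ate chow with 0.25% adenine for 4 weeks, then standard diet to the end of week 8, and received the same vehicle. The AA group had the same adenine course and 30 mg/kg of asiatic acid, a triterpenoid from Centella asiatica, by daily gavage for all 8 weeks. Each library is 1 mouse, and none of these mice received AA without adenine, so that AA can be read here only in adenine-fed mice. Values are FPKM, in which the reads of a gene are set against both the gene's length and the size of the library, so that genes of different length share one scale.

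T cells recognize antigen through a receptor whose variable chains are held at the membrane by the CD3 chains gamma, delta, epsilon and zeta, and the receptor does not normally reach the surface unless these assemble together. CD4 and CD8 are co-receptors that divide mature T cells into helper and cytotoxic classes. CD79A is a signalling chain of the B-cell receptor, and MS4A1 is CD20, a membrane protein of B cells. CD45, the product of Ptprc, is a phosphatase on nearly all leukocytes. Lymphocytes and macrophages are known to enter the kidney when its tubules are injured, as they are in adenine-fed mice. In whole tissue, fewer cells of a type and less RNA per cell cannot be told apart.

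In the AA group, 2 of the 8 genes were called higher than in both other groups, Cd3g and Cd3e, where 11.7% of all genes tested were called higher than in the M group and 10.2% higher than in the C group. These shares count noncoding genes too, and among protein-coding genes they were 2.58% to 7.48% and 2.84% to 6.84%, by class of gene model. In AA vs. M both calls ended when every library was scaled to the same sum (TPM) or when M mice 4 and 5 stood for the M group, and in AA vs. C that of Cd3e ended in TPM. That sum includes the mitochondrial genes. Both calls stood in both comparisons when libraries were scaled to reads outside the mitochondrial genome. Between M and C none of the 7 genes that could be tested passed. The other CD3 chain, Cd3d, was listed at 0 in 4 of the 5 AA kidneys, and Cd4, Cd8a and both B-cell genes overlapped between the groups. C mouse 4 held the highest control value of 7 of the 8 genes, the exception being Cd3e.

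The kidneys differed in ways that bear on each of these values. Reads on genes, recovered from the smallest steps of the FPKM values, ranged from 13647036 to 28884450 per library. Outside the mitochondrial genome, C kidneys had 6951352 to 13576620 reads, M kidneys 2077644 to 7142900 and AA kidneys 2225755 to 4271183. Of reads on genes, 53.0% to 62.5% were mitochondrial in C kidneys, 64.0% to 86.8% in M and 69.2% to 87.2% in AA. M mice 1 to 3 listed between 10068 and 12222 genes above 0, against 23040 and 25460 in M mice 4 and 5, 19864 to 25251 in C kidneys and 18695 to 22355 in AA kidneys. A gene listed at 0 may be one that was not estimated, since Gapdh, which every cell uses, was listed at 0 in 3 libraries. These were M mouse 1 and AA mice 1 and 2. Gapdh stood at 0.0235 to 0.0967 FPKM in AA mice 3 to 5, and at 0.834, 0.249, 3.31 and 7.21 in M mice 2 to 5. In C kidneys it was at 2.63 to 12.9 FPKM. Of 15 proximal tubule genes, which mark the tissue as kidney, 10 were above 0 in M mouse 2 and 13 to 15 in every other kidney. Their summed levels were 3151 to 13088 FPKM in C kidneys, 112 to 625 in M kidneys and 254 to 662 in AA kidneys. Kap alone held 2779 and 10538 FPKM of the lowest and highest C sums, 81.2 and 500 in M and 126 and 486 in AA.

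**Figure D1:**
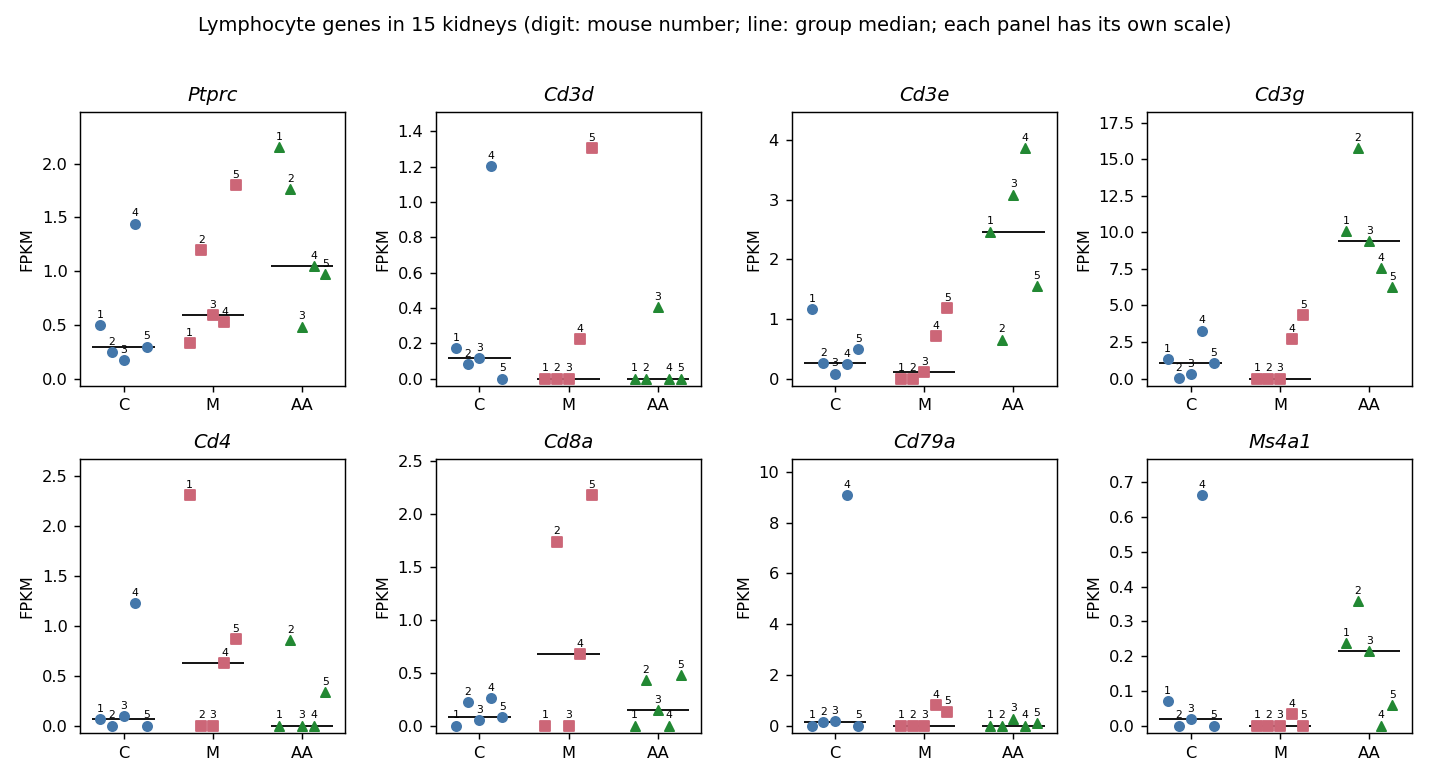
FPKM of each of the 8 lymphocyte genes (vertical axes, each panel on its own linear scale) in the 15 kidneys, with the mouse number beside each point and the group median as a line. Cd3g in the 5 AA kidneys lies above all 10 other kidneys, from 6.27 to 15.8 FPKM, while Cd79a stands at 9.08 FPKM in C mouse 4 alone.

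Cd3g encodes CD3 gamma (ENSMUSG00000002033, GRCm38 chr9:44969572-44980431, minus strand). In the AA group it was at 10.1, 15.8, 9.40, 7.55 and 6.27 FPKM in mice 1 to 5, a mean of 9.82 ± 3.66 (SD, n = 5). In the M group it was listed at 0 in mice 1 to 3 and stood at 2.72 and 4.35 FPKM in mice 4 and 5. In the C group the values were 1.35, 0.0304, 0.327, 3.27 and 1.06 FPKM, a mean of 1.21 ± 1.27 (SD, n = 5). Every AA kidney was above every M and every C kidney, while the M and C kidneys overlapped. These values rest on 330 to 508 reads in the AA kidneys, at most 444 in the M kidneys and 4 to 362 in the C kidneys.

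Cd3d encodes CD3 delta (ENSMUSG00000032094, GRCm38 chr9:44981786-44987339, plus strand). Its first base lies 1355 bases from that of Cd3g, and the genes point away from each other. Cd3d was at 0.172, 0.0822, 0.116 and 1.20 FPKM in C mice 1 to 4 and listed at 0 in C mouse 5. In the M group it was listed at 0 in mice 1 to 3 and stood at 0.225 and 1.31 FPKM in mice 4 and 5. In the AA group it was at 0.404 FPKM, or 11 reads, in mouse 3 and listed at 0 in the other 4 mice, where 3 reads would have given between 0.0803 and 0.183 FPKM. So the AA kidneys, which held the highest Cd3g levels of the series, gave at most 11 reads of the neighbouring gene. The groups overlapped in each comparison of Cd3d.

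The sequences at the 2 start sites are shown because these neighbours gave such different levels in the same kidneys. Each runs from 250 bases before to 50 after the gene's start (RefSeq, GRCm38.p6), at chr9:44980382-44980681 on the minus strand for Cd3g and chr9:44981536-44981835 on the plus strand for Cd3d. Capitals mark AGGAAG, a core of sites of ETS factors, or its reverse complement CTTCCT, searched on both strands. The TATA box letters TATAAA were searched in the same way.

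Cd3g: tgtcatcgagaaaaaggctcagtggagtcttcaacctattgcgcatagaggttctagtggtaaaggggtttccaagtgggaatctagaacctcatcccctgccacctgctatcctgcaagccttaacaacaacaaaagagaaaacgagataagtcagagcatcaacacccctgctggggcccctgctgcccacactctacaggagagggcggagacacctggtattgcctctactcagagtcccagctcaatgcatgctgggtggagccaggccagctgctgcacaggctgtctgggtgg

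Cd3d: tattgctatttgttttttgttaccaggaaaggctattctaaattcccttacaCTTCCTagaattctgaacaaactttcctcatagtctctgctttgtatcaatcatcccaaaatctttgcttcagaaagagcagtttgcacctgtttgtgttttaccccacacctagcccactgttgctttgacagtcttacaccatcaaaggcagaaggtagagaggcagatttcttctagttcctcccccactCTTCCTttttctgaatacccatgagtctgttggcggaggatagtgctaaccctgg

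Neither window holds TATAAA, which is found in 13.6% of the 32851 promoters of the same length. The Cd3d window holds the AGGAAG letters and the Cd3g window does not, and 35.4% of all promoters do. Such a match is a description of letters and not of a bound site.

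Cd3e encodes CD3 epsilon (ENSMUSG00000032093, GRCm38 chr9:44998740-45009627, minus strand). In the AA group it was at 2.47, 0.652, 3.09, 3.87 and 1.55 FPKM in mice 1 to 5, a mean of 2.33 ± 1.26 (SD, n = 5). In the M group it was listed at 0 in mice 1 and 2 and stood at 0.108, 0.719 and 1.19 FPKM in mice 3 to 5. In the C group the values were 1.17, 0.256, 0.0812, 0.246 and 0.491 FPKM, a mean of 0.448 ± 0.428 (SD, n = 5). In both comparisons 4 of the 5 AA kidneys were above the highest kidney of the other group, and AA mouse 2 was not. Counted reads were 24 to 325 in the AA kidneys, 0 to 151 in the M kidneys and 22 to 153 in the C kidneys.

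Cd247, the gene of CD3 zeta, completes the receptor complex. It was between 0.0409 and 0.187 FPKM in the C kidneys, listed at 0 in M mice 1 and 2, at most 0.332 FPKM in M mice 3 to 5, and listed at 0 in all 5 AA kidneys. Cd247 did not pass the test in AA vs. C (log2 fold change -0.14 ± 0.06 SE, limma adjusted p = 0.0854). It met the filter there through the 5 C kidneys alone. As listed, the 4 CD3 chains lay apart in the AA kidneys, with Cd3g and Cd3e above 0 in all 5, Cd3d in 1 and Cd247 in none. The zeros may be genes that were not estimated, as Gapdh was also listed at 0 in AA mice 1 and 2.

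The M vs. C comparison asks whether the adenine course changed the 8 genes. On the log2(FPKM + 1) scale, limma called 1.38% of all 21153 genes tested, in either direction, 0.269% higher and 1.11% lower. A call needed a Benjamini-Hochberg adjusted p no higher than 0.05 together with a log2 fold change of 1 or more. It called 0 of the 7 lymphocyte genes tested, and 0 of them had an unadjusted p under 0.05. Ms4a1 was above 0 in too few kidneys to be tested. The largest of the 7 differences was that of Cd8a, at 0.61 ± 0.31 (SE, limma adjusted p = 0.342). The median of the 7 log2 fold changes was -0.03, beside -0.12 over all genes tested. The sign for Cd3d, Cd3e and Cd3g rests on which M kidneys are used: against C, M mice 4 and 5 alone gave 0.42, 0.46 and 1.19, and none was called. With those M kidneys alone, 0 of all genes were called.

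The AA vs. M comparison asks what AA changed in adenine-fed mice. Over all 19798 genes tested, 11.7% were called higher in the AA group and 1.07% lower, and 2 of the 6 lymphocyte genes tested were. Cd3g was higher by 2.51 ± 0.50 on the log2(FPKM + 1) scale (SE, limma adjusted p = 0.00557). A two-sided exact permutation test gave p = 0.00794, the smallest that 5 against 5 kidneys allow. In 11.9% of all genes tested every AA library was above every M library, and of the 6 members this held for Cd3g. Cd3e was higher by 1.23 ± 0.36 (SE, limma adjusted p = 0.0308, exact permutation p = 0.0238). These 2 calls depended on the scaling and on M mice 1 to 3: in TPM, the differences were 2.38 and 1.23, with limma adjusted p of 0.0600 and 0.202. When M mice 4 and 5 stood for the M group, they were 1.22 and 0.68, with limma adjusted p of 0.0674 and 0.326, and against M mice 1 to 3 alone 3.38 and 1.59, both called. Without any 1 of M mice 1, 2 or 3 or AA mice 1, 3 or 4, Cd3e lost its call, with log2 fold changes of 1.06 to 1.19 and limma adjusted p between 0.0562 and 0.0723, and it also did with no filter on low values (limma adjusted p = 0.0641).

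The AA vs. C comparison shares its AA kidneys with the one before, so that both can carry the same deviation of those 5 libraries. Over all 21898 genes tested, 10.2% were called higher in the AA group and 9.61% lower, and 2 of the 8 lymphocyte genes were. Cd3g was higher by 2.41 ± 0.37 on the log2(FPKM + 1) scale (SE, limma adjusted p = 0.000838, exact permutation p = 0.00794), and it was called under all 10 other settings and without any 1 of the 10 kidneys. In 11.5% of all genes tested every AA library was above every C library, which among the members held for Cd3g. Cd3e was higher by 1.15 ± 0.30 (SE, limma adjusted p = 0.0127, exact permutation p = 0.0159). Its call was lost in TPM, where the difference was 0.93 (limma adjusted p = 0.124), and without AA mouse 4, where it was 0.98, under the limit of 1. The median over the 8 genes was 0.07, beside 0.09 over all genes tested.

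**Figure D2:**
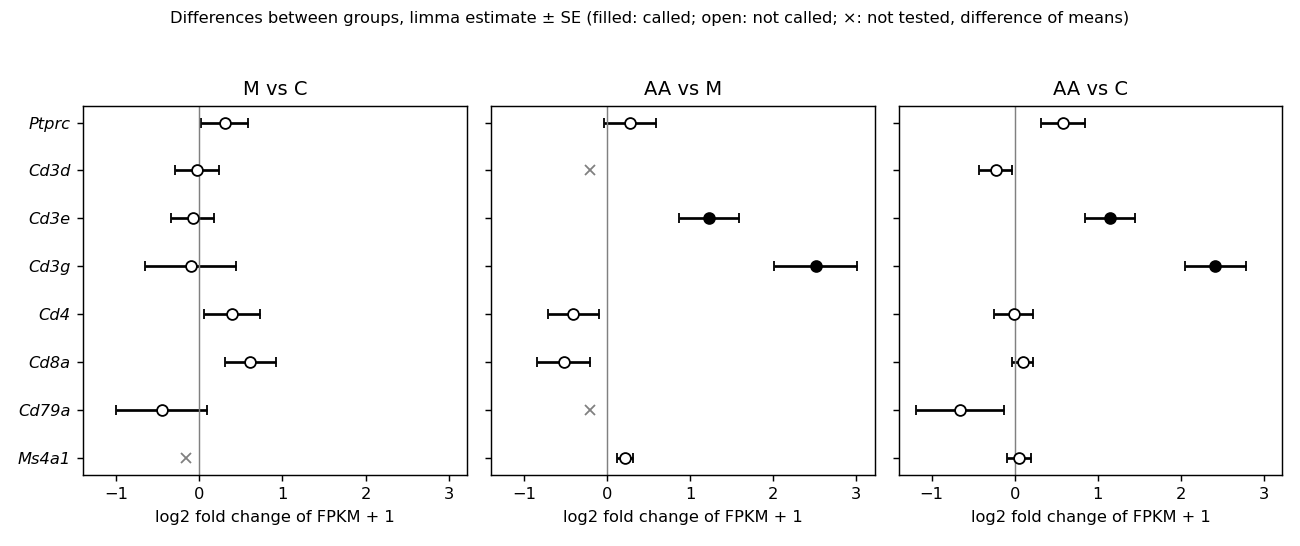
Differences of the 8 lymphocyte genes between groups, as log2 fold changes of FPKM + 1 (horizontal axis, linear) with bars of 1 SE from limma, filled where called, and as a cross where a gene was above 0 in too few libraries to be tested. Cd3g and Cd3e are the filled points, at 2.51 and 1.23 in AA vs. M and at 2.41 and 1.15 in AA vs. C.

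**Figure D3:**
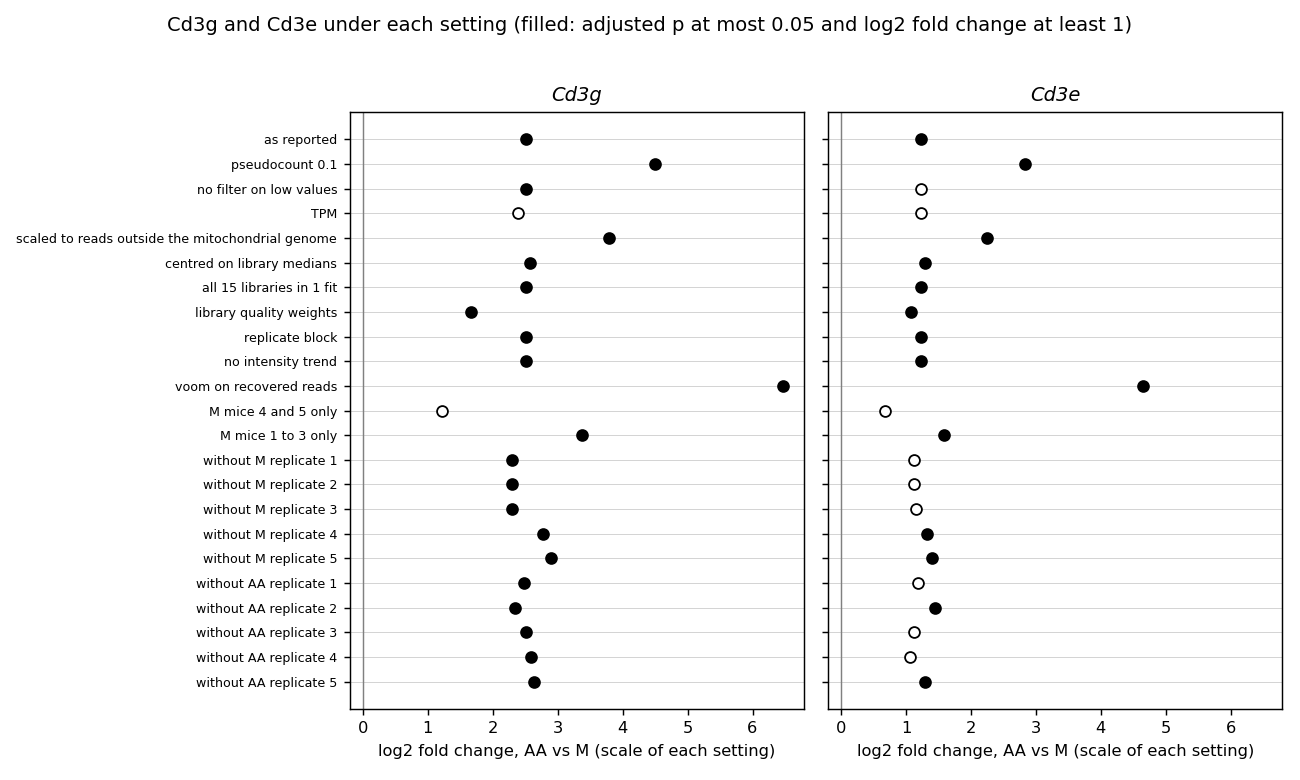
Log2 fold changes of Cd3g and Cd3e in AA vs. M (horizontal axis, linear, on the scale of each setting) under the reported setting, 12 others and without each kidney in turn, filled where called. Cd3g stays above 0 from 1.22 to 6.47 and Cd3e from 0.68 to 4.65, with open points for both in TPM and against M mice 4 and 5 only.

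Cd4 encodes the co-receptor of helper T cells and is also carried by some macrophages (ENSMUSG00000023274, GRCm38 chr6:124864692-124888221, minus strand). In the C group it was at 0.0618, 0.0971 and 1.22 FPKM in mice 1, 3 and 4 and listed at 0 in mice 2 and 5. In the M group it was at 2.31, 0.626 and 0.866 FPKM in mice 1, 4 and 5 and listed at 0 in mice 2 and 3, and in the AA group at 0.852 and 0.339 FPKM in mice 2 and 5 and at 0 in mice 1, 3 and 4. The highest M kidney, mouse 1, was one in which all 3 CD3 genes were listed at 0, and each group held kidneys at 0. Differences were 0.39 ± 0.33 in M vs. C, -0.40 ± 0.31 in AA vs. M and, for AA vs. C, -0.01 ± 0.24 (log2 ± SE, limma adjusted p = 0.579, 0.402 and 0.971).

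Cd8a encodes the alpha chain of the co-receptor of cytotoxic T cells (ENSMUSG00000053977, GRCm38 chr6:71373427-71379173, plus strand). In the C group it was listed at 0 in mouse 1 and at 0.219, 0.0497, 0.260 and 0.0822 FPKM in mice 2 to 5. In the M group it was at 1.74, 0.675 and 2.18 FPKM in mice 2, 4 and 5 and listed at 0 in mice 1 and 3. In the AA group it was at 0.427, 0.147 and 0.478 FPKM in mice 2, 3 and 5 and listed at 0 in mice 1 and 4. Thus 3 M kidneys lay above every C and AA kidney and the other 2 were listed at 0. AA vs. M gave -0.52 ± 0.32 and AA vs. C 0.09 ± 0.13 (log2 ± SE, limma adjusted p = 0.285 and 0.584). Its partner chain Cd8b1 was between 0.809 and 5.23 FPKM in the AA kidneys and did not pass in AA vs. M (log2 fold change 1.00 ± 0.43 SE, limma adjusted p = 0.127).

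Ptprc was above 0 in all 15 kidneys (ENSMUSG00000026395, GRCm38 chr1:138062861-138175708, minus strand). It was at 0.495, 0.245, 0.173, 1.44 and 0.297 FPKM in C mice 1 to 5, a mean of 0.530 ± 0.523 (SD, n = 5). The M kidneys were at 0.329, 1.19, 0.587, 0.523 and 1.80 FPKM, a mean of 0.887 ± 0.605 (SD, n = 5), and the AA kidneys at 2.15, 1.76, 0.484, 1.05 and 0.970 FPKM, a mean of 1.28 ± 0.67 (SD, n = 5). All 3 groups overlapped. The differences were 0.30 ± 0.28 in M vs. C, 0.28 ± 0.31 in AA vs. M and 0.58 ± 0.26 in AA vs. C (log2 ± SE, limma adjusted p = 0.612, 0.579 and 0.0988). Ptprc was called in AA vs. C by 1 of the other settings, limma voom on the recovered reads, at 1.59 (adjusted p = 0.0207).

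Cd79a was dominated by 1 kidney (ENSMUSG00000003379, GRCm38 chr7:24897381-24902197, plus strand). In C mouse 4 it was at 9.08 FPKM, or 448 reads, while C mice 2 and 3 were at 0.137 and 0.165 FPKM and C mice 1 and 5 were listed at 0. It was at 0.796 and 0.550 FPKM in M mice 4 and 5 and at 0.274 and 0.0852 FPKM in AA mice 3 and 5, and listed at 0 in the other 3 M and 3 AA kidneys. M vs. C gave -0.45 ± 0.55 and AA vs. C -0.65 ± 0.53 (log2 ± SE, limma adjusted p = 0.694 and 0.348). For AA vs. M, where the gene was not tested by limma, a two-sided exact permutation test gave p = 0.444.

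Ms4a1 was never above 0.664 FPKM, the lowest maximum of the 8 genes (ENSMUSG00000024673, GRCm38 chr19:11249675-11266241, minus strand). It was at 0.0705, 0.0195 and 0.664 FPKM in C mice 1, 3 and 4 and listed at 0 in C mice 2 and 5. In the M group it was at 0.0331 FPKM in mouse 4 and listed at 0 in the other 4, and in the AA group at 0.237, 0.358, 0.215 and 0.0602 FPKM in mice 1, 2, 3 and 5 and at 0 in mouse 4. These AA values rest on 20, 20, 20 and 6 reads. AA vs. M gave 0.21 ± 0.10 on the log2(FPKM + 1) scale (SE, limma adjusted p = 0.139, exact permutation p = 0.0476), so the gene was not called.

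C mouse 4 also stood apart in other B-cell genes. Igkc, the constant part of the kappa light chain, was at 539 FPKM there and at 17.7 to 60.5 in the other C kidneys. The summed level of a list of 30 B-cell and plasma-cell genes, which includes Igkc, was 745 FPKM in C mouse 4, 35.9 to 76.3 in the other C kidneys, 90.0 to 299 in the M kidneys and 41.7 to 95.0 in the AA kidneys. Of the 745 FPKM, Igkc held 539 and Ighm 107. A separate list of 32 T-cell genes summed to 33.4 FPKM in C mouse 4 and to 16.7 to 24.7 in the other C kidneys. Leaving C mouse 4 out changed no call of the 8 genes, and Cd3g in AA vs. C was then at 2.69 (limma adjusted p = 0.000388).

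The wider T-cell list showed how unevenly the kidneys recorded these genes. Of its 32 genes, M mice 1 to 3 had 7, 7 and 9 above 0, M mice 4 and 5 had 30 and 32, the C kidneys 24 to 31 and the AA kidneys 16 to 24. Summed levels were 9.56 to 13.7 FPKM in M mice 1 to 3, 39.8 and 85.5 in M mice 4 and 5, 16.7 to 33.4 in C kidneys and 17.5 to 48.2 in AA kidneys. The M kidneys that listed the 3 CD3 genes at or near 0 were therefore those in which most other T-cell genes were at 0 as well, and the part of this in the M vs. C and AA vs. M values was not tested beyond leaving those kidneys out.

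**Figure D4:**
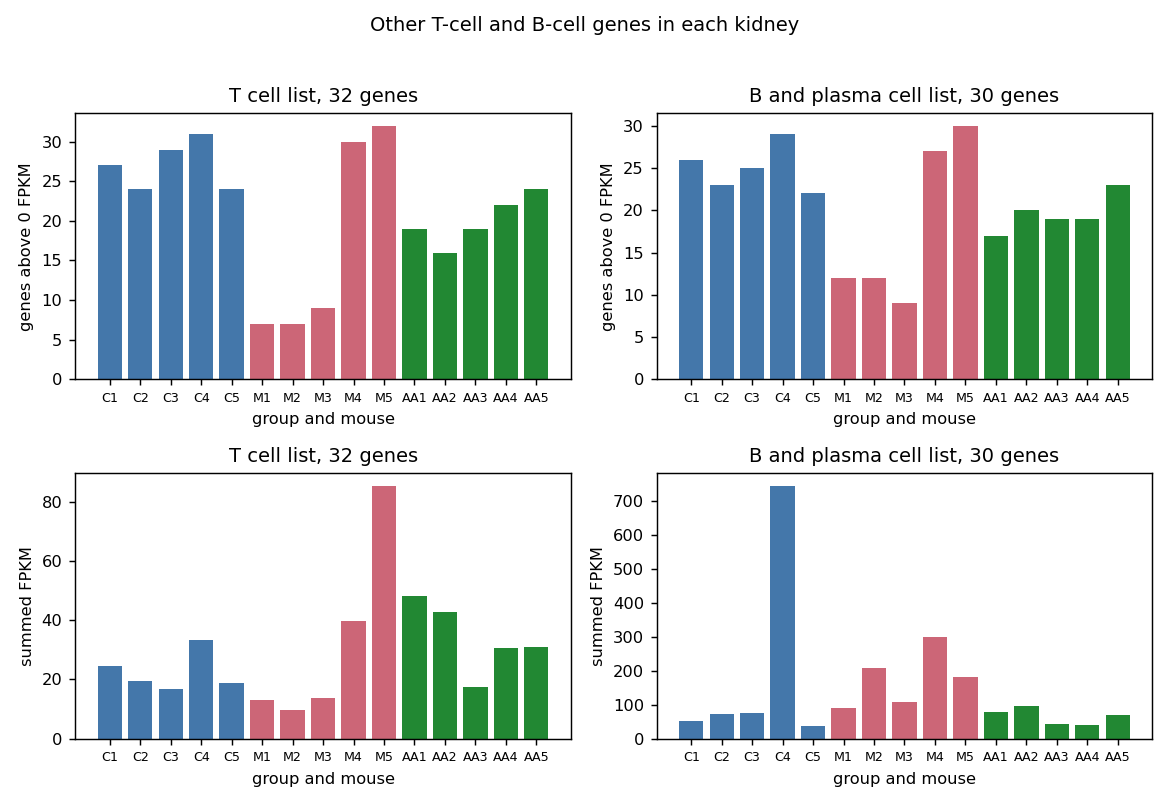
Number of genes above 0 FPKM (upper panels) and summed FPKM (lower panels) of 32 T-cell genes and 30 B-cell and plasma-cell genes in each kidney (horizontal axes, group letter and mouse number; bars start at 0). M mice 1 to 3 show 7, 7 and 9 T-cell genes, and C mouse 4 has a summed B-cell level of 745 FPKM.

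By the same test as for the 8 genes, the T-cell list had 0 of 27 genes called in M vs. C, 2 of 20 higher in AA vs. M, and 4 higher and 1 lower of 27 in AA vs. C. Over all genes tested, 11.7% were called higher in AA vs. M, and 10.2% higher and 9.61% lower in AA vs. C. These shares count noncoding genes too. Among protein-coding genes, by class of gene model, 2.58% to 7.48% were called higher in AA vs. M. In AA vs. C, 2.84% to 6.84% of protein-coding genes were called higher and 9.17% to 14.8% lower. Whether the list differs from such a background was not tested. Lef1, a transcription factor of T-cell development, was between 1.21 and 3.57 FPKM in the AA kidneys, above every M and C kidney, and rose by 1.39 ± 0.31 in AA vs. M (log2 ± SE, limma adjusted p = 0.00919). Skap1, an adaptor of T-cell receptor signalling, rose by 1.09 ± 0.31 in AA vs. M and 1.05 ± 0.20 in AA vs. C (limma adjusted p = 0.0276 and 0.00286). In TPM 0 of the 20 genes were called in AA vs. M, and 0 higher and 2 lower of 27 in AA vs. C. Against M mice 4 and 5 alone 0 were called higher and 3 lower in AA vs. M. Lef1 and Skap1 are not confined to T cells.

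The constant parts of the receptor itself did not follow one pattern. Trac, of the alpha chain, was at 6.99, 1.42, 1.85, 1.56 and 1.46 FPKM in AA mice 1 to 5 and did not pass in any comparison, with 0.09 ± 0.47 in AA vs. M (log2 ± SE, limma adjusted p = 0.922). Trbc1, of the beta chain, was at 17.2, 12.4, 3.11, 7.52 and 8.29 FPKM in the AA kidneys, listed at 0 in M mice 1 to 3, and at 7.65 and 18.1 FPKM in M mice 4 and 5. It was called higher in AA vs. C (1.43 ± 0.43, limma adjusted p = 0.0228), a call that ended in TPM at 0.64 (limma adjusted p = 0.284), and not in AA vs. M (1.78 ± 0.79, limma adjusted p = 0.134). Trbc2, the other beta constant gene, was at 1.91, 0, 0.289, 0.562 and 1.44 FPKM in the AA kidneys, with -1.35 ± 0.57 in AA vs. M (limma adjusted p = 0.116). The nearly identical Trbc1 and Trbc2 can share reads, so their split is uncertain.

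Of the 30 B-cell and plasma-cell genes, 0 of 25 tested were called in M vs. C, 1 of 21 was lower in AA vs. M, and 1 was higher and 2 were lower of 25 in AA vs. C, against 1.07% of all genes lower in the first of these and 10.2% higher and 9.61% lower in the second. The AA vs. C balance depended on the scaling and on C mouse 4: TPM gave 0 higher and 5 lower, and without C mouse 4, when genes above 0 in under 5 of the remaining kidneys were no longer tested, 3 were higher and 0 lower of 21. Igkc fell by 1.71 in AA vs. M (SE 0.46, limma adjusted p = 0.0205), and was not called in TPM (limma adjusted p = 0.0819). Mzb1, a chaperone of antibody-secreting cells, and Cd79b, the partner of Cd79a, were listed at 0 in all 5 AA kidneys. In AA vs. C they were lower by 1.87 and 1.18 (limma adjusted p = 0.000967 and 0.0183). Both met the filter of 5 kidneys above 0 through the 5 C kidneys alone. Each C kidney also had more reads outside the mitochondrial genome than any AA kidney. The part of this in the 2 calls was not tested. Btk, a kinase of B cells and myeloid cells, rose by 1.07 in AA vs. C (limma adjusted p = 0.00893), and was not called in TPM, at 0.82 (limma adjusted p = 0.0882).

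Ptprc is shared by all leukocytes, so the other leukocyte lists are given beside it. Of 18 other pan-leukocyte genes, 1 was higher in M vs. C, 2 of 17 tested were lower in AA vs. M, and 1 of 18 was higher in AA vs. C. In TPM 1 was lower in AA vs. C and 0 were called in either other comparison, while against M mice 4 and 5 alone 4 were lower in AA vs. M. Over all genes tested, 0.269% rose in M vs. C, 1.07% fell in AA vs. M and 10.2% rose in AA vs. C. The median log2 fold change of the pan-leukocyte genes was 1.05 in M vs. C, -0.59 in AA vs. M and 0.35 in AA vs. C, beside -0.12, 0.17 and 0.09 over all genes tested, while Ptprc itself gave 0.30, 0.28 and 0.58. The median in AA vs. C turned to -0.01 in TPM. Of 15 macrophage and monocyte genes, 6 rose and 0 fell in M vs. C, 0 rose and 1 fell in AA vs. M, and 6 rose and 1 fell in AA vs. C, with summed levels of 20.4 to 119 FPKM in C kidneys, 160 to 444 in M kidneys and 111 to 174 in AA kidneys. In TPM 4 of the 15 rose and 1 fell in M vs. C, 0 were called in AA vs. M, and 1 rose and 1 fell in AA vs. C, and with M mice 4 and 5 alone 0 were called in M vs. C. Lyz2, the lysozyme of myeloid cells, rose by 4.32 in M vs. C (limma adjusted p = 0.0190), while Adgre1, which encodes F4/80, Cd68, of macrophage lysosomes, and Itgax, which encodes CD11c, did not pass there (limma adjusted p = 0.0840, 0.0759 and 0.338). The part of these cells in the Ptprc values was not tested.

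Of 12 NK-cell and cytotoxic genes, 5 could be tested in M vs. C, where Ccl5, a chemokine of T cells and other leukocytes, rose by 1.89 (limma adjusted p = 0.0233), and 4 in AA vs. M, where Ccl5 fell by 1.59 and Ncr1, a receptor of NK cells, rose by 1.56 (limma adjusted p = 0.0179 and 0.00714). In TPM, and with M mice 4 and 5 for the M group, none of these 3 calls stood, with limma adjusted p between 0.0680 and 0.172. Over all genes tested, 0.269% were called higher in M vs. C, and 11.7% higher and 1.07% lower in AA vs. M. With M mice 4 and 5 alone, 0 of all genes were called in M vs. C. In AA vs. C 1 of 5 was called, Ncr1, higher by 1.39 (limma adjusted p = 0.00385), beside 10.2% of all genes, and 0 in TPM. Of 20 identifiers for lymphoid tissue and homing, 0 of 14 tested were called in M vs. C, 1 of 13 was higher in AA vs. M, and 3 of 14 were higher in AA vs. C, beside 11.7% and 10.2% of all genes. TPM gave 0 homing genes in AA vs. M, and 0 higher and 2 lower in AA vs. C. Of 8 dendritic-cell genes none was called in the 3 comparisons. Of 4 neutrophil genes tested 1 rose and 1 fell, both in AA vs. C, and of 5 red-cell genes 2 fell in AA vs. C. In that comparison 10.2% of all genes rose and 9.61% fell. Of the 15 proximal tubule genes, 8 fell in M vs. C, 1 rose in AA vs. M and 10 fell in AA vs. C. Of all genes, 1.11% fell in M vs. C, 11.7% rose in AA vs. M and 9.61% fell in AA vs. C. TPM gave 14 that fell in M vs. C, 0 called in AA vs. M and 15 that fell in AA vs. C. In TPM 1609 of all genes were called in M vs. C, 1.93% of them higher, and 6785 in AA vs. C, 12.7% higher. With M mice 4 and 5 alone 0 of the 15 were called in M vs. C, as were 0 of all genes. The median log2 fold change of the 15 was then -2.10, beside -2.79 with all 5 M mice.

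Across the 15 kidneys, the genes whose log2(FPKM + 1) was most like that of Cd3e, by Pearson r among 11526 genes with a mean of at least 1 FPKM, were no T-cell genes. They were Gm43450 (r = 0.95), AC122821.1, Gm35202, Gm47002 and Gm48170 (r = 0.93), of which 4 are annotated as long intergenic RNAs and AC122821.1 as a processed pseudogene. All 5 were listed at 0 in M mice 1 to 3. For Ptprc the nearest was Ccr2 (r = 0.85), a chemokine receptor of monocytes and T cells, at 4.83 FPKM in AA mouse 1 and 0.132 in C mouse 2. It was followed by Gm45116, Exosc7, Gm22335 and Lmna (r = 0.82). For Cd79a they were the antibody genes Ighv1-7 (r = 0.96), Igkv10-96, Ighg2b and Ighm, and then Rcan1 (r = 0.78), and C mouse 4 held the highest value of each, with Ighm at 107 FPKM there and at most 15.1 elsewhere. The points of each r share the libraries and their sizes.

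The gene models behind these values differ between the members. Of the joined exons counted for a gene, the share found only in transcripts annotated as retaining an intron was 72.0% for Ptprc, 68.7% for Cd3g, 64.2% for Cd3e and 50.3% for Ms4a1, against 22.3% for Cd4, 13.9% for Cd8a, 5.79% for Cd3d and 0% for Cd79a. Both members called in the AA group were among those with the larger shares. Over all protein-coding genes tested in AA vs. M, 2.58% of those with a share of at least 50% were called higher, 2.71% of those with a smaller share above 0 and 7.48% of those with none. Where in Cd3g and Cd3e the reads lay cannot be read from values per gene, and the part of these stretches in their levels was not tested. Ptprc shares its locus with A130071D04Rik on the same strand, at 0.352 to 6.33 FPKM over the 15 kidneys, so its own reads are uncertain there. The genes that overlap Cd3e, Gm48719 and Gm48720, were listed at 0 in all AA and M kidneys. Of the 31-base words of Cd79a, 12.2% also occur in transcripts of other genes, against at most 3.10% for the other 7 members and 0.243% for Cd3g.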

How the data were processed

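Poly-A RNA of 15 kidneys was sequenced in paired ends of 150 bases. Per the labels and the study's methods, the authors removed poor reads (fastp), aligned to mm10 with HISAT2 2.0.5, counted on genes with featureCounts 1.5.0-p3 and deposited FPKM per gene and kidney, with no counts analysed here. The FPKM divisor was not the reads on genes: reads recovered from the FPKM steps were 0.435 to 1.93 times it. In each library 96.9% to 98.5% of low values were whole reads within 0.02, and whether a pair was counted as 1 or 2 is not given in the sources used here. GENCODE M21 on GRCm38 gave names, positions and lengths for 54495 of 54532 identifiers.

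Each comparison used limma 3.58.1 in R 4.3.3 (lmFit, then trended eBayes) on the log2(FPKM + 1) values of its 10 libraries, for genes above 0 in at least 5, with Benjamini-Hochberg adjustment over all genes tested. Calls needed an adjusted p no higher than 0.05 and a log2 fold change of 1 or more, up or down. The pseudocount of 1 understates the change of low genes. The study's own test modelled counts, and limma took its place because FPKM are not counts. Each of the 8 genes was also compared by a two-sided exact permutation test of the mean log2 values (24 tests, p not adjusted). P-values measure the spread between these mice only. In simulated data of M vs. C, the fit was checked with known changes. No columns were left out.

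The genes and marker lists were chosen with earlier results of these data known. From each list at most 4 genes with the smallest limma p are named, besides receptor partners of the members and Adgre1, Cd68 and Itgax. Alternatives were a pseudocount of 0.1, no filter, TPM, reads outside the mitochondrial genome, centring, 1 fit of all 15 libraries, quality weights, a replicate block, no trend, limma voom on recovered reads, parts of the M group, and each library left out. Replicate numbers came from the sample titles. Other steps ran in Python 3.11.15 (pandas 2.3.3, numpy 2.4.6, scipy 1.17.1, matplotlib 3.10.9). Libraries far from their group were found by Dixon's ratio at 0.71. Some genes of the lists are not reported here.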

Additional observations from a re-analysis of the deposited data

Results flagged for a closer look

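In 8 of the 24 sets of 5 values (8 genes in 3 groups), 1 kidney stood apart by Dixon's ratio, where chance flags about 1 in 20, and sets with 4 zeros are flagged by any value above 0. C mouse 4 was the kidney in 5 of them, with Ptprc at 1.44 FPKM (next highest 0.495), Cd3d at 1.20 (0.172), Cd4 at 1.22 (0.0971), Cd79a at 9.08 (0.165) and Ms4a1 at 0.664 (0.0705). Cd3d stood apart in M mouse 5 at 1.31 FPKM (0.225) and in AA mouse 3 at 0.404, the other 4 AA kidneys being listed at 0. Ms4a1 stood apart in M mouse 4 at 0.0331 FPKM, with the other 4 M kidneys listed at 0. Cd3g, Cd3e and Cd8a were not among them in any group.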

How the results depend on the processing

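The count of called lymphocyte genes stayed at 0 in M vs. C under all 12 other settings. In AA vs. M it went from 2 to 1 with no filter on low values, to 0 in TPM and to 0 against M mice 4 and 5 alone, and was 2 under the other 9. In AA vs. C it went from 2 to 1 in TPM and was 2 or 3 under the other 9. Leaving out 1 library at a time gave 0 in M vs. C, 1 to 2 in AA vs. M and 1 to 2 in AA vs. C.

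Cd3g and Cd3e kept their direction under every setting in AA vs. M and AA vs. C. The signs that turned belonged to differences that were not called. In M vs. C, Cd3d turned to 0.023 with centring, 0.058 with quality weights and 0.42 against M mice 4 and 5 alone, Cd3e to 0.14 and 0.46 and Cd3g to 0.39 and 1.19 under the last 2 of these. In AA vs. M, M mice 1 to 3 alone gave 0.098 for Cd3d and 0.094 for Cd79a. In AA vs. C, Cd4 turned to 0.098 with centring and 0.066 with voom, Cd8a to -0.095 in TPM, and Ms4a1 to -0.12 in TPM and -0.0036 with quality weights. Leaving out 1 library at a time, the values spanned 0 from -0.25 to 0.17 for Cd3d, -0.26 to 0.078 for Cd3e, -0.49 to 0.18 for Cd3g and -0.64 to 0.19 for Cd79a in M vs. C, from -0.30 to 0.025 for Cd3d in AA vs. M, and from -0.17 to 0.21 for Cd4 and -0.0038 to 0.19 for Ms4a1 in AA vs. C. Among the genes tested by limma, Cd4 in AA vs. C ranged from -0.081 to 0.053. The cause was not tested.

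The number of calls over all genes also moved with the settings. Of all genes, 291 were called in M vs. C, but 33 with no filter, 1609 in TPM, 786 with all 15 libraries in 1 fit, 188 with quality weights, 152 with the replicate block, 0 against M mice 4 and 5 alone, 3404 against M mice 1 to 3 alone and 4 to 954 without 1 library. In AA vs. M 2533 were called, but 422 in TPM, 4009 with voom and 1656 against M mice 4 and 5 alone. In AA vs. C 4346 were called, but 7474 with a pseudocount of 0.1, 6785 in TPM, 7087 with reads outside the mitochondrial genome and 7722 with voom. TPM moved the median log2 fold change of all genes from -0.12 to -0.58 in M vs. C and from 0.09 to -0.39 in AA vs. C, and the share of calls that were higher from 19.6% to 1.93% and from 51.6% to 12.7%. In AA vs. M that share was 91.6%, and 67.4% with quality weights and 27.8% against M mice 4 and 5 alone.

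The replicate numbers are shared between groups but did not pair the mice: same-numbered deviations correlated over 0.1 in 3 of 5 pairs for M vs. C, in 1 for AA vs. M and in 2 for AA vs. C. With the number as a replicate block, the lymphocyte calls were 0, 2 and 2, with Cd3g and Cd3e in AA vs. M at limma adjusted p = 0.0156 and 0.0448. Depth limits what a 0 can say: 3 reads, a floor for counting error only, correspond to up to 0.183 FPKM for Cd3d and 0.228 for Cd79a in the AA group.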
